A study of Homo sapiens with 6 samples.

Results

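The 8 transcripts described here come from genes of the Hippo pathway and from genes it controls: ANKRD1, CCN1 (older symbol CYR61), CCN2 (CTGF), AXL, YAP1, WWTR1 (encoding TAZ), LATS1 and LATS2. They were chosen by transcript ID, 1 per gene, from the 203028 transcripts quantified in each library, and all 8 were found and passed the filter on low counts, as did 97571 of all transcripts. ANKRD1 was singled out because its transcript rose far with PRPF39 shRNA in these same libraries, so its difference between the groups is given as a description, with no test. The other 7 were listed for their place in the pathway, to see whether that rise was shared. The list was drawn up with earlier results of these libraries known, so the p-values given for these 7 are not independent of that choice. Polyadenylated RNA of HEK293 cells, an established human embryonic kidney cell line, was sequenced in 3 libraries per group. Cells of the control group carried a scrambled shRNA and cells of the other group an shRNA against PRPF39, a protein associated with the U1 small nuclear ribonucleoprotein. In both groups a lentivirus delivered the shRNA and puromycin selected the cells that had integrated it. The labels name neither the number of shRNA sequences nor whether the replicates were separate transductions, so the spread between libraries may be technical. The level of PRPF39 and marker genes of the cell line were not analysed here.

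The Hippo pathway is a kinase cascade that restrains growth in response to cell contact, cell shape and attachment. Its last kinases, LATS1 and LATS2, phosphorylate the coactivators YAP1 and TAZ, which are then held in the cytoplasm or degraded. Unphosphorylated YAP1 and TAZ enter the nucleus, bind TEAD transcription factors and raise transcription of genes such as ANKRD1, CCN1, CCN2 and AXL. Control of YAP1 and TAZ therefore acts largely on the proteins, which mRNA levels do not show.

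The core of the DNA element that TEAD factors bind is GGAATG. It was searched, with its reverse complement CATTCC, in RefSeq promoter windows of GRCh38.p14, each of 300 bases that run from 250 before a transcription start to 50 after it. The table held 10 windows for 7 of the 8 genes, all but CCN1. Printed below are the 250 bases before the start for ANKRD1 and CCN2, the members with the largest fitted changes, and for YAP1, whose window also held a match, together with the surroundings of the single matches of AXL and LATS2. Capitals mark the matches.

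ANKRD1 promoter (chr10:90921088-90921337, - strand): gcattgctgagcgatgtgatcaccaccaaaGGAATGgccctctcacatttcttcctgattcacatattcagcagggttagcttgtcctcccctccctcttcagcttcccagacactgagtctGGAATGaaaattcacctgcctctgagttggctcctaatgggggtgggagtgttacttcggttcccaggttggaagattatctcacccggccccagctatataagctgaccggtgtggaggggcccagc
CCN2 promoter (chr6:131951373-131951622, - strand): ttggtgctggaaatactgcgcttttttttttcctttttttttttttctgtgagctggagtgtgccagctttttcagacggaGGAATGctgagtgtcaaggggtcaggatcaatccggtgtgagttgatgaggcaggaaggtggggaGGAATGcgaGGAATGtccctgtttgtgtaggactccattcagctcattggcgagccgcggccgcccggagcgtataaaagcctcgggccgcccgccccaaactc
YAP1 promoter (chr11:102110197-102110446, + strand): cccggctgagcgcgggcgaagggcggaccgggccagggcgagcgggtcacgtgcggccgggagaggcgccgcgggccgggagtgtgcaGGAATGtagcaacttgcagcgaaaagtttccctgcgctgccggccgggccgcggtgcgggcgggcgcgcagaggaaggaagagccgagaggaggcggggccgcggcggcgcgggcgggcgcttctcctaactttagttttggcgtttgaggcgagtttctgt
AXL, the match in its second window (chr19:41226533-41226558, + strand): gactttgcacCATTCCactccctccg
LATS2, the match after its start (chr13:21061562-21061587, - strand): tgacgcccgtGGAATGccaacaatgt

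ANKRD1 had 2 matches, beginning at -220 and -128 from the start, and CCN2 had 3, beginning at -169, -104 and -95. YAP1 had 1 at -162, AXL 1 on the opposite strand in the second of its windows, at -212, and LATS2 1 just after its start, at 10. The windows of WWTR1 and LATS1 held none. Of all 35116 windows, 14% held at least 1 match, 1.37% at least 2 and 0.128% at least 3. A match is a run of letters and not a measured binding site. AXL, WWTR1 and LATS1 had 2 windows each, and which start site gave the transcripts measured here was not examined. The WWTR1 gene extends upstream of both its windows, to 149724788 on chromosome 3, and that end was not searched.

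The 4 transcripts counted here as targets were higher in every PRPF39 shRNA library than in every control library, by about 4-fold for CCN1 and AXL, 8-fold for CCN2 and 10.7-fold for ANKRD1 (ratios of mean TPM 3.96, 3.83, 8.0 and 10.7). The transcripts of the coactivators and kinases differed by far less: YAP1 had a ratio of 1.37, LATS2 0.992, LATS1 0.785 and WWTR1 0.731. LATS2, counted here with the kinases, is itself known as a gene that YAP1 and TAZ activate, and it did not share the rise. In RNA from whole cultures, more of a transcript per cell and more cells with it cannot be told apart. TPM is a level scaled for library size and for an effective length of each transcript. Levels of different genes can be compared as far as those effective lengths hold. Groups of 3 libraries without overlap were not rare in these data. By CPM, counts scaled to library size, 25.3% of all tested transcripts had groups that did not overlap, 12.6% with every PRPF39 shRNA library above and 12.8% with every one below. Of those averaging 5 CPM or more the share was 40.9%, 24% above and 16.9% below. By the same measure the 4 targets and YAP1 lay above, WWTR1 and LATS1 below, and LATS2 overlapped.

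**Figure D1:**
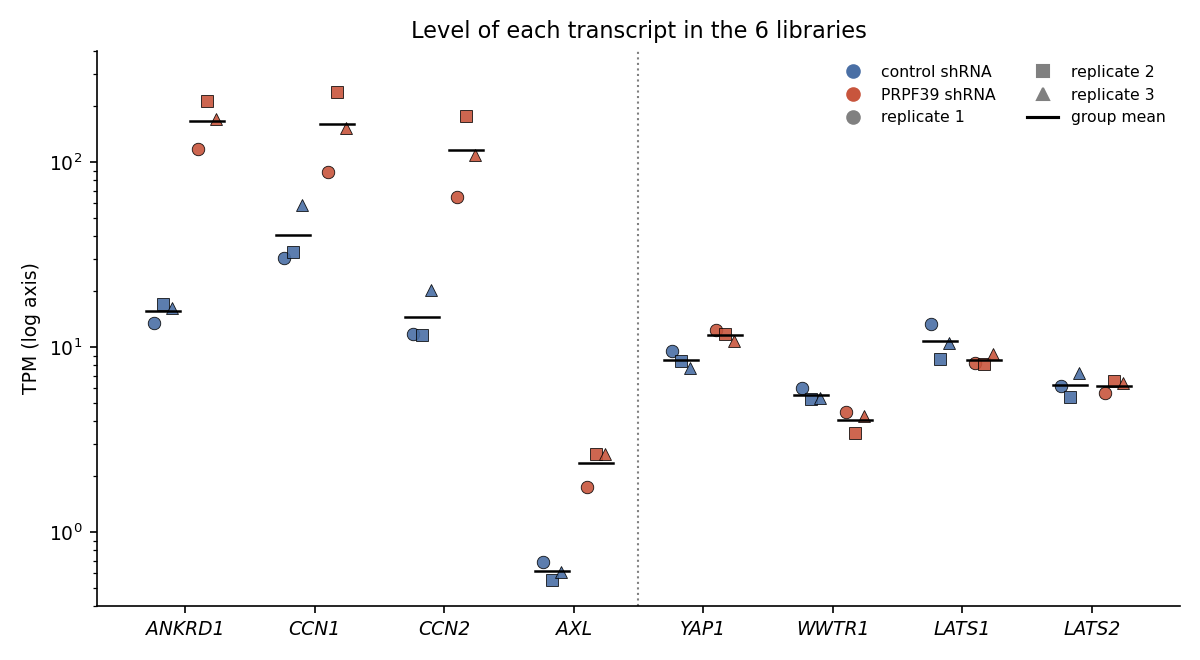
Level of each transcript in TPM (log axis) in the 3 control shRNA libraries (blue) and the 3 PRPF39 shRNA libraries (red), with the replicate number as marker shape and the group mean as a bar. The 4 target transcripts to the left of the dotted line sit higher in every PRPF39 shRNA library than in any control, whereas LATS1 and LATS2 overlap between the groups.

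ANKRD1, also called CARP, encodes an ankyrin repeat protein found in the nucleus and in the sarcomere of muscle, and is widely used as a readout of YAP1 and TAZ. The gene lies on chromosome 10 (90912096 to 90921087, GRCh38.p14), and the transcript measured, ENST00000371697, is 1979 bases long. Its level was 13.5, 17.1 and 16.2 TPM in control replicates 1, 2 and 3, and 118, 214 and 170 TPM in PRPF39 shRNA replicates 1, 2 and 3. The lowest PRPF39 shRNA library thus stood 6.93-fold above the highest control, the widest gap of the 8 transcripts. The fitted log2 fold change was 3.39 ± 0.28 (SE, edgeR), rank 3 of the 20216 transcripts averaging 5 CPM or more. In the ranking of all transcripts of a library by TPM, ANKRD1 moved from ranks 6343 to 8680 in the controls to ranks 496 to 944 in the PRPF39 shRNA libraries. The estimates rested on 3013 to 61544 reads per library.

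CCN2 encodes connective tissue growth factor, a secreted matrix-associated protein that acts in fibrosis and wound repair. The gene lies on chromosome 6 (131948176 to 131951372), and its transcript ENST00000367976 is 2339 bases long. The levels were 11.8, 11.7 and 20.4 TPM in control replicates 1, 2 and 3, and 64.4, 178 and 109 TPM in PRPF39 shRNA replicates 1, 2 and 3. All PRPF39 shRNA libraries were at least 3.16-fold above the highest control, although the highest of them was 2.76-fold above the lowest of them. CCN2 rose by 2.96 ± 0.44 (SE) on the log2 scale, with an adjusted p of 0.0441 over all 97571 transcripts tested (edgeR's quasi-likelihood test, Benjamini-Hochberg).

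CCN1, the paralog of CCN2, encodes a secreted matricellular protein that binds integrins. Its gene is on chromosome 1 (85580761 to 85583950), and the transcript, ENST00000451137, is 2290 bases long. The levels were 30.4, 32.8 and 58.3 TPM in control replicates 1, 2 and 3, and 88.4, 239 and 153 TPM in PRPF39 shRNA replicates 1, 2 and 3. Control replicate 3 came close to the lowest PRPF39 shRNA library, which was 1.52-fold above it. The log2 fold change was 1.96 ± 0.43 (SE), with a 95% interval from 0.93 to 2.98, and it did not pass over all transcripts (adjusted p = 0.101, edgeR; unadjusted p = 0.00292). Among transcripts averaging 5 CPM or more, tested on their own, it passed (adjusted p = 0.0212, edgeR).

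AXL encodes a receptor tyrosine kinase of the TAM family whose ligand is GAS6. Its gene is on chromosome 19 (41219223 to 41261766), and the transcript ENST00000301178 is 4737 bases long. AXL was the least abundant of the 8 in both groups, at 0.686, 0.548 and 0.608 TPM in control replicates 1, 2 and 3, and 1.75, 2.66 and 2.65 TPM in PRPF39 shRNA replicates 1, 2 and 3. The lowest PRPF39 shRNA library was 2.55-fold above the highest control. AXL rose by 1.91 ± 0.20 (SE) on the log2 scale (adjusted p = 0.0226, edgeR), and its 95% interval ran from 1.44 to 2.37. Even at this low level the estimates rested on 389 to 2625 reads per library.

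Of the 7 transcripts read with a test, CCN2 and AXL passed and both were higher, against a background of 0.904% called over all transcripts tested, 0.443% higher and 0.461% lower. At an unadjusted p under 0.05, 6 of the 7 passed, all but LATS2, against 16.1% of all transcripts (edgeR). All 7 averaged 5 CPM or more, and most transcripts tested were less abundant. Of transcripts averaging 5 CPM or more, tested on their own, 17.7% passed even after adjustment. Their unadjusted share was not computed, so 16.1% is a low background for these 7. The median log2 fold change was 1.96 for the 3 targets other than ANKRD1, -0.21 for the 4 coactivator and kinase transcripts and -0.02 for all 97571 tested. LATS2, also known as a target of YAP1 and TAZ, is counted there with the kinases, and its own change was -0.04. These calls did not hold with a library left out. With any 1 of the 6 libraries left out, neither CCN2 (adjusted p from 0.0825 to 0.167, edgeR) nor AXL (0.0517 to 0.129) passed over all transcripts, where between 0 and 22 transcripts of the whole table then passed. Among transcripts averaging 5 CPM or more over all libraries, CCN2 passed with each of the 6 libraries left out (adjusted p 0.00642 to 0.0329, edgeR), in fits where 4.4% to 21.2% of all transcripts passed. AXL is in that set only through its PRPF39 shRNA libraries, at a mean of 2.58 CPM in the controls and 9.67 CPM with PRPF39 shRNA. It had to differ to enter the set, so its p-values there add nothing to its call. Over all transcripts, the log2 fold changes with 1 library left out were 2.49 to 3.29 for CCN2 and 1.77 to 2.08 for AXL.

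The order of the PRPF39 shRNA libraries was shared by the targets and by LATS2. ANKRD1, CCN1 and CCN2 were each lowest in replicate 1, intermediate in replicate 3 and highest in replicate 2. Relative to the control mean, ANKRD1 stood at 7.59, 13.7 and 10.9 in PRPF39 shRNA replicates 1, 2 and 3. CCN2 stood at 4.41, 12.2 and 7.45, and CCN1 at 2.18, 5.92 and 3.79. AXL was likewise lowest in replicate 1 at 2.85, and near equal in replicates 2 and 3 at 4.32 and 4.31. LATS2, which did not rise, took the same order at 0.904, 1.05 and 1.02, so the order was not particular to the targets. The share of all transcripts with this order was not examined. Replicate 2 was also the shallowest of the 6 libraries, at 113747941 estimated counts against 158588987 to 246491084 in the others. Without it the log2 fold changes were 3.14 for ANKRD1, 2.49 for CCN2, 1.5 for CCN1 and 1.77 for AXL, all in the same direction. Among the controls, replicate 3 was high in CCN1 and CCN2, at 1.44 and 1.39 times the control mean, and not in ANKRD1 (1.04) or AXL (0.990). Leaving that library out gave 2.31 for CCN1 and 3.29 for CCN2 on the log2 scale.

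**Figure D2:**
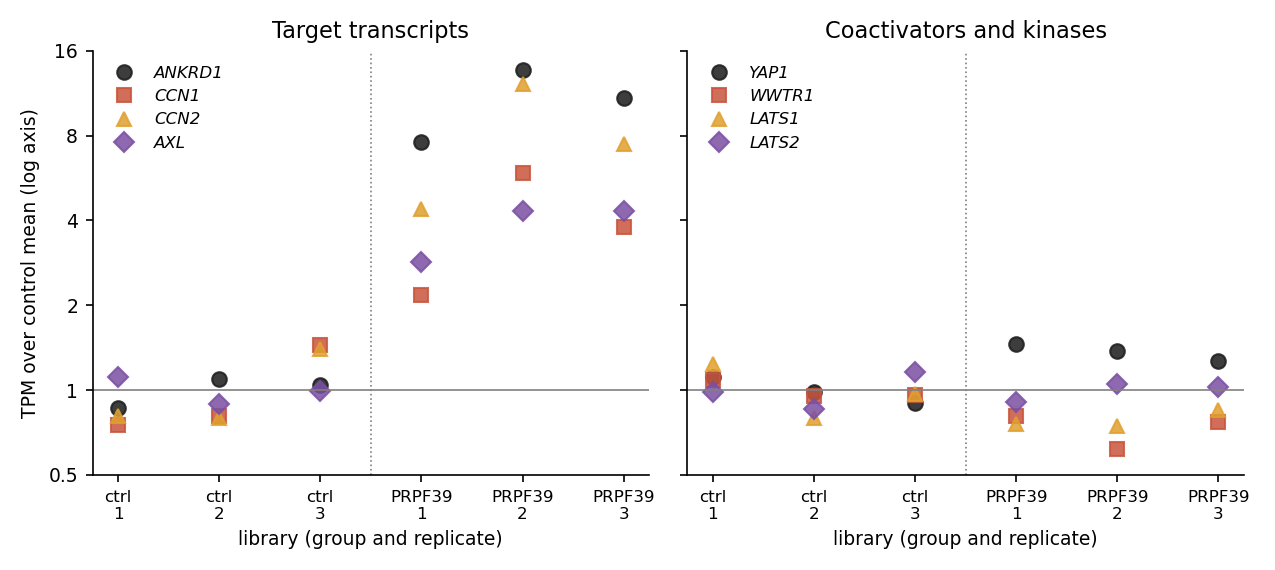
TPM of each transcript in each library divided by its mean over the 3 control libraries (log axis), targets on the left, coactivators and kinases on the right, with the horizontal line at 1. ANKRD1, CCN1 and CCN2 take the same order in the PRPF39 shRNA libraries (replicate 2, then 3, then 1). They stand there between 2.18 and 13.7 times the control mean. LATS2 takes the same order, and the 4 transcripts on the right stay between 0.618 and 1.45.

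CCN1 and CCN2 stood in a different ratio in the 2 groups. The ratio of CCN1 to CCN2 in TPM was 2.58, 2.81 and 2.86 in control replicates 1, 2 and 3, and 1.37, 1.35 and 1.41 in PRPF39 shRNA replicates 1, 2 and 3. The means were 2.75 ± 0.15 and 1.38 ± 0.03 (SD, n = 3 each), and the groups were far apart relative to their spread. Within each group the ratio was steady although the levels of both transcripts varied: the CV of the PRPF39 shRNA libraries was 47.2% for CCN1 and 48.8% for CCN2. The ratio of ANKRD1 to CCN1 was 0.278 to 0.522 in the controls and 0.893 to 1.34 in the PRPF39 shRNA libraries, also without overlap. That of ANKRD1 to CCN2 was 0.797 to 1.47 in the controls and 1.2 to 1.84 in the PRPF39 shRNA libraries, and there the groups overlapped. These ratios were chosen after their values were seen and were not tested.

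YAP1, the transcriptional coactivator at the end of the cascade, stood slightly higher with PRPF39 shRNA. Its gene is on chromosome 11 (102110447 to 102233424), and the transcript ENST00000282441 is 5386 bases long. The levels were 9.52, 8.45 and 7.72 TPM in control replicates 1, 2 and 3, and 12.4, 11.8 and 10.8 TPM in PRPF39 shRNA replicates 1, 2 and 3. The groups did not overlap, the nearest libraries being 1.14-fold apart. The log2 fold change was 0.42 ± 0.11 (SE; 95% interval 0.15 to 0.69) and did not pass over all transcripts (adjusted p = 0.152, edgeR).

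WWTR1, which encodes TAZ, the paralog of YAP1, stood lower. The gene is on chromosome 3 (149517235 to 149724788), and the transcript ENST00000360632 is 2103 bases long. The levels were 6.0, 5.26 and 5.33 TPM in control replicates 1, 2 and 3, and 4.46, 3.42 and 4.26 TPM in PRPF39 shRNA replicates 1, 2 and 3, again with no overlap. The log2 fold change was -0.49 ± 0.13 (SE; 95% interval -0.80 to -0.17), with an adjusted p of 0.151 (edgeR). PRPF39 shRNA replicate 2, which had the highest CCN1, CCN2 and ANKRD1, had the lowest WWTR1, from 684 reads.

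The transcripts of the paralogous coactivators thus lay on opposite sides of their controls. The ratio of YAP1 to WWTR1 in TPM was 1.59, 1.61 and 1.45 in control replicates 1, 2 and 3, and 2.79, 3.45 and 2.55 in PRPF39 shRNA replicates 1, 2 and 3. Their sum differed by less than that. It was 14.1 ± 1.28 TPM in the controls and 15.7 ± 1.0 TPM with PRPF39 shRNA (SD, n = 3 each), and the groups overlapped. Of that sum YAP1 held 60.7% ± 1.36 in the controls and 74.3% ± 2.94 with PRPF39 shRNA (SD, n = 3 each). These comparisons too were chosen after the values were seen, and no test was made.

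LATS1 and LATS2 encode the kinases that inactivate YAP1 and TAZ, and LATS2 is itself known as a gene that YAP1 and TAZ activate. LATS1 is on chromosome 6 (149658153 to 149718101) and its transcript ENST00000543571 is 7517 bases long. Its levels were 13.4, 8.64 and 10.5 TPM in control replicates 1, 2 and 3, and 8.22, 8.07 and 9.21 TPM in PRPF39 shRNA replicates 1, 2 and 3. These overlap in TPM. On the CPM scale, where the libraries are also scaled to one another, all 3 PRPF39 shRNA libraries lay below the controls. The log2 fold change was -0.37 ± 0.11 (SE; 95% interval -0.62 to -0.12; adjusted p = 0.168, edgeR).

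LATS2 is on chromosome 13 (20973036 to 21061586), and its transcript ENST00000382592 is 5511 bases long. Its levels were 6.17, 5.34 and 7.23 TPM in control replicates 1, 2 and 3, and 5.65, 6.55 and 6.38 TPM in PRPF39 shRNA replicates 1, 2 and 3, with full overlap. The log2 fold change was -0.04 ± 0.13 (SE; adjusted p = 0.913, edgeR), and its 95% interval ran from -0.36 to 0.27. The upper bound lies below the lower bounds for AXL (1.44) and CCN2 (1.92). The ratio of LATS1 to LATS2 was 1.75 ± 0.38 in the controls and 1.38 ± 0.13 with PRPF39 shRNA (SD, n = 3 each), with overlap. Its size depends on the effective lengths, which were shorter relative to full length for LATS1 than for LATS2.

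**Figure D3:**
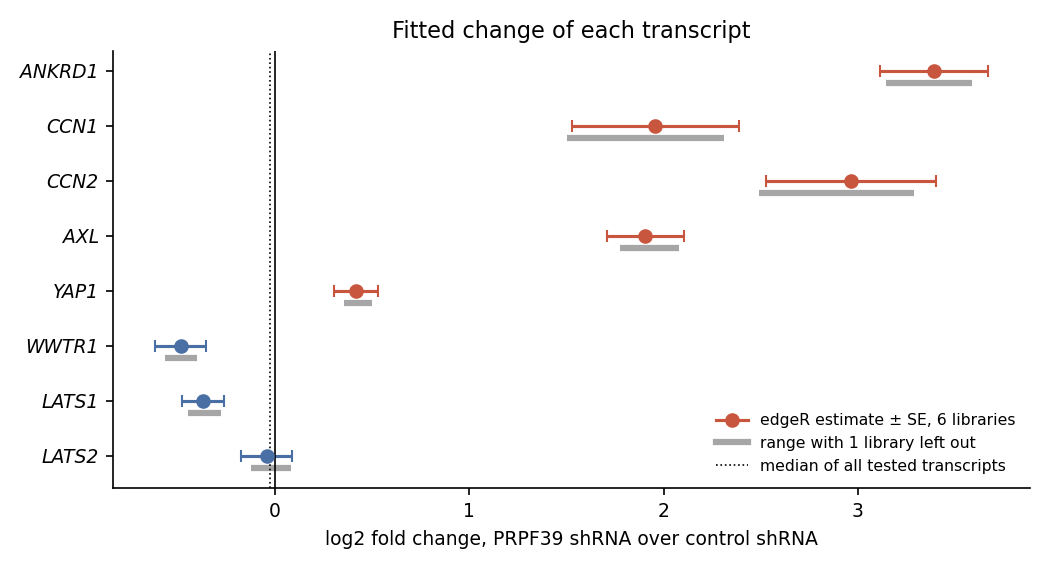
Fitted log2 fold change of each transcript, PRPF39 shRNA over control shRNA (points, edgeR, with SE bars, 6 libraries), and the range of the estimate with 1 library left out in turn (grey bars). The dotted line is the median of all tested transcripts, at -0.02. The 4 targets lie between 1.91 and 3.39, the coactivators and kinases between -0.49 and 0.42, and the grey bar of LATS2 alone crosses 0.

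**Figure D4:**
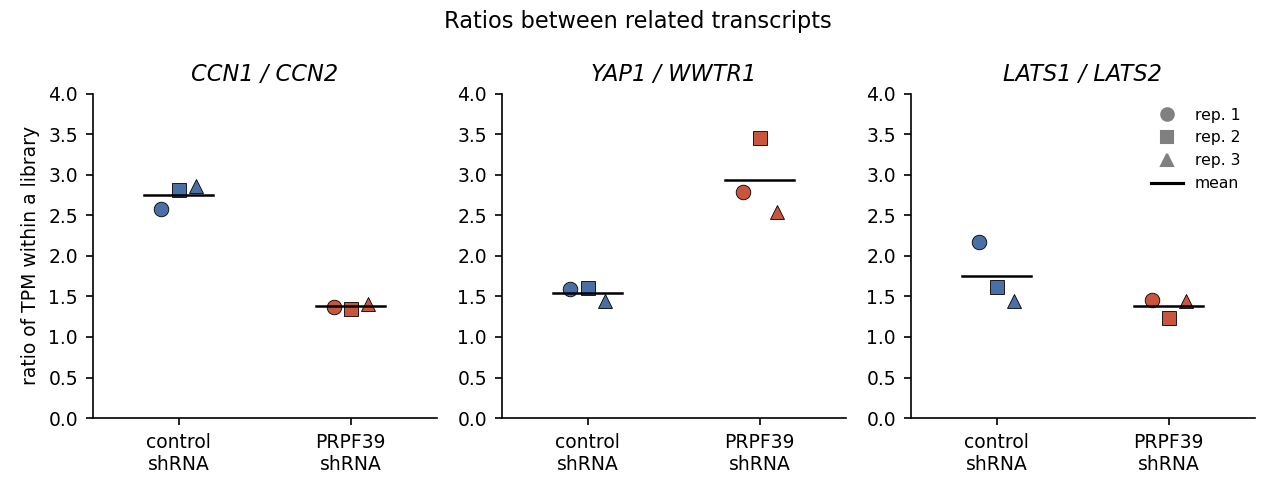
Ratio of TPM within each library for CCN1 to CCN2, YAP1 to WWTR1 and LATS1 to LATS2, by group, with replicates as marker shapes and group means as bars. The ratio of CCN1 to CCN2 lies between 2.58 and 2.86 in the controls and between 1.35 and 1.41 with PRPF39 shRNA, that of YAP1 to WWTR1 between 1.45 and 1.61 and between 2.55 and 3.45, and that of LATS1 to LATS2 overlaps.

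Tested only among transcripts averaging 5 CPM or more, CCN1, CCN2 and YAP1 passed as higher and WWTR1 and LATS1 as lower, while LATS2 did not pass. AXL passed too, but is not counted here because its level with PRPF39 shRNA alone brought it into the set. In that set 17.7% of transcripts were called, 8.55% higher and 9.13% lower. YAP1 (adjusted p = 0.0383), LATS1 (0.0422) and WWTR1 (0.0433, edgeR) were close to the threshold there. With 1 library left out, YAP1 and WWTR1 passed in none of 6 such fits (edgeR, adjusted p 0.0567 to 0.108 and 0.0629 to 0.131), LATS1 in 1 of 6 (0.0325 to 0.113), the fit without control replicate 2. CCN1 passed in 3 of 6 (edgeR, adjusted p 0.0166 to 0.0742), and not without control replicate 2 or PRPF39 shRNA replicates 2 and 3. DESeq2 on all transcripts called these 5 in the same directions, and AXL as higher, where it called 13.8% of those given an adjusted p.

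The order of the levels changed at the top. In the controls CCN1 was the most abundant of the 8 (40.5 ± 15.5 TPM), followed by ANKRD1 (15.6 ± 1.88), CCN2 (14.6 ± 4.98), LATS1 (10.8 ± 2.39), YAP1 (8.57 ± 0.91), LATS2 (6.25 ± 0.95), WWTR1 (5.53 ± 0.41) and AXL (0.614 ± 0.069; SD, n = 3 each). The ranges of ANKRD1 and CCN2, CCN2 and LATS1, LATS1 and YAP1, and LATS2 and WWTR1 overlapped. In the PRPF39 shRNA libraries ANKRD1 (168 ± 47.7 TPM), CCN1 (160 ± 75.8) and CCN2 (117 ± 57.1) overlapped one another and stood above the rest. YAP1 (11.7 ± 0.80), LATS1 (8.5 ± 0.62), LATS2 (6.19 ± 0.48), WWTR1 (4.05 ± 0.55) and AXL (2.35 ± 0.52; SD, n = 3 each) followed with no overlap between neighbours in TPM. The order in both groups depends on the effective lengths by which TPM is scaled. The 4 targets together summed to 71.3 ± 21.2 TPM in the controls and 447 ± 181 TPM with PRPF39 shRNA (SD, n = 3 each).

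The transcripts most like ANKRD1 over the 6 libraries were sought among 13978 others averaging 10 CPM or more, by Pearson's r of log2 CPM. The libraries fall into 2 groups, so a high r mostly marks a difference between the groups. ENST00000218388 (r = 0.999) stood at 65.9 ± 3.28 TPM in the controls and 243 ± 41.8 TPM with PRPF39 shRNA (SD, n = 3 each). ENST00000586834 (r = 0.998) differed far less in size, at 2.81 ± 0.22 and 3.79 ± 0.16 TPM. No table used here pairs these IDs with genes. CCN2 had r = 0.976, rank 145, and CCN1 r = 0.933, rank 791. YAP1 had r = 0.866, rank 1802, LATS2 r = -0.011, rank 8090, and LATS1 r = -0.902, rank 13131. AXL and WWTR1 averaged less than 10 CPM and were not among those compared.

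How firmly each estimate belongs to its transcript differed. The read numbers of ANKRD1 and CCN2 were whole in all 6 libraries, while those of the other 6 transcripts were fractional in all of them, as where a read is shared between transcripts. RefSeq lists 1 curated mRNA each for ANKRD1, CCN1, CCN2 and LATS2, 3 for AXL, 4 for WWTR1, 5 for LATS1 and 9 for YAP1. A lower level of a WWTR1 or LATS1 transcript, or a higher one of the YAP1 or AXL transcript, therefore cannot be told apart from a shift between transcripts of the same gene. The same limit may hold for the higher CCN1 and the level LATS2, whose read numbers were fractional too. Other transcripts of these genes were not analysed. The lncRNA gene CCN2-AS1 overlaps CCN2, YAP1-DT overlaps YAP1, WWTR1-IT1 and WWTR1-AS1 overlap WWTR1, and LOC645967 overlaps LATS1. Whether strand was used in quantification is not given in the sources used here, so whether reads of such pairs were kept apart is not known. The whole read numbers of CCN2 gave no sign of reads shared with another quantified transcript. Effective lengths, by which TPM is scaled, hardly differed between libraries, at 1758 to 1810 bases for ANKRD1 and 1976 to 2012 bases for CCN2. Relative to full length they did differ between transcripts. They were 0.64 to 0.66 of it for LATS1 and 0.72 to 0.73 for YAP1, but 1.03 to 1.04 for LATS2 and 1.05 to 1.06 for AXL. The order of levels and the size of ratios between genes rest on this scaling, and were not examined by full length.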

How the data were processed

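Each of the 6 libraries came as a table of transcripts. The authors deposited estimated counts (read numbers not scaled for depth or length) and TPM, scaled by each library's effective lengths, per the file headers. Lengths and effective lengths are in bases. The submitters' processing notes name Salmon 0.11.1, STAR 2.7.9a, cutadapt 2.1, DESeq2 1.32.0 and build hg38. Their options are not given in the sources used here.

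Estimated counts were rounded and fitted in R 4.3.3 with edgeR 4.0.16. Low counts were removed by filterByExpr (minimum count 10, by group), libraries were scaled by TMM, and group was tested by quasi-likelihood, with Benjamini-Hochberg adjustment over all 97571 transcripts and calls at adjusted p under 0.05. Log2 CPM used a prior count of 2. SE is the log2 fold change over the square root of F, and 95% intervals use the t distribution of that test. The script was tested on simulated data. Totals ran from 113747941 to 246491084 estimated counts. Intervals give the uncertainty of the fitted difference between the groups, estimated from the variation between libraries, and not the range of the libraries. Alternatives used RLE or upper-quartile factors, other filters, DESeq2 1.42.0, limma 3.58.1 (voom, or log2 of TPM plus 1 or 0.1), effective-length offsets, a replicate block and leaving out each library.

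The members, and a list of further Hippo pathway genes, were chosen with earlier results of these data known. Gene names of the 8 transcripts came with their selection. No table used here pairs other transcript IDs with genes, so the further list was not analysed here. Nor were protein sequences. All 8 are named. The 2 transcripts most like ANKRD1 follow a fixed rule: 10 CPM or more on average and the highest Pearson's r of log2 CPM. Libraries with the same replicate number were not treated as pairs, since nothing in the labels ties them together.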

Additional observations from a re-analysis of the deposited data

How the results depend on the processing

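Of the 7 transcripts tested, 2 passed over all transcripts, CCN2 and AXL, and also 2 with RLE or upper-quartile factors, no filter beyond 1 read, limma-voom, limma on log2 of TPM plus 1 or 0.1, and effective-length offsets. With a mean of at least 5 CPM 6 passed, AXL included, and with DESeq2 6 passed. With the replicate block 0 passed (edgeR; 6 of 7 at an unadjusted p under 0.05), as 0 of all 97571 transcripts did. Deviations from the group means correlated at 0.158, 0.031 and -3.24e-05 between libraries of the same number, and 1 of 3 control libraries matched its own number best. With 1 library left out, 0 of the 7 passed in each of the 6 fits (edgeR; 6 of 7 at an unadjusted p under 0.05). In the fits of transcripts of at least 5 CPM with 1 library left out, chosen after seeing the data, 2 or 3 passed, where 4.4% to 21.2% of all transcripts did. AXL is among them in each fit and is in that set only through its PRPF39 shRNA level. Over the 16 alternatives that changed a single choice, the log2 fold change kept its sign for every transcript but LATS2: 3.14 to 3.59 for ANKRD1, 1.5 to 2.31 for CCN1, 2.49 to 3.29 for CCN2, 1.04 (log2 of TPM plus 1, a pseudocount above its control level) to 2.08 for AXL, 0.35 to 0.50 for YAP1, -0.57 to -0.38 for WWTR1 and -0.45 to -0.28 for LATS1. For LATS2, never called, it turned to 0.016 without PRPF39 shRNA replicate 1 and to 0.084 without control replicate 3. Its range with 1 library left out was -0.12 to 0.084 over all transcripts. At 5 CPM with 1 library left out, the range was -0.18 to 0.056, the highest without control replicate 3. The cause was not tested. No alternative moved the median of the transcripts it tested by more than 0.043 on the log2 scale, but the sets tested differed. For the 20216 transcripts averaging 5 CPM or more, the median was 0.048 in the main fit and -0.00031 when they were fitted alone. In that second fit WWTR1 went from -0.49 to -0.53, LATS1 from -0.37 to -0.42 and YAP1 from 0.42 to 0.37.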
